A study of Mus musculus with 4 samples.

Results

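The genes described here are 42 human genes of the cell cycle, measured in sorted blood CD8+ T cells from patients given PD-1 blockade. They were picked by symbol and by no rule on their measured values, though with earlier results of these data known. Of them, 16 act in or just before DNA replication (S phase) and 26 act in mitosis or at its entry. All 42 were found, each once, among the 59489 genes used. RNA sequencing was done on T cells from peripheral blood, sorted by flow cytometry as CD8+ with high CD11a, an integrin chain that is raised on antigen-experienced cells. The libraries came from 4 groups with 1 library each: a responder after PD-1 blockade therapy, a non-responder after it, a responder before it and a non-responder before it. Patients received anti-PD-1 at intervals of 3 weeks, with 4 doses making a cycle. A PD-1pos tag stands in the titles of the libraries made before therapy and not in those made after it, so time and that tag cannot be told apart, and whether it names a sorting gate is not stated. The labels do not say whether any patient gave blood at both times, nor how many patients stand behind a library.

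A resting T cell leaves the cell cycle and keeps few transcripts of the proteins that copy and divide its genome. After stimulation, cyclin D and cyclin E with their kinases release E2F factors from the RB protein, and E2F factors switch on the genes for replication. The MCM2 to MCM7 ring is loaded on origins by ORC, CDC6 and CDT1, and is turned into an active helicase by CDC45 and the GINS complex. Transcripts of the mitotic genes peak later, in G2 and mitosis, under the MuvB, B-MYB and FOXM1 factors. Ki-67, the protein of MKI67, is widely stained to find dividing CD8+ T cells in the blood of patients on PD-1 blockade.

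Counts summed to 129773591 in the responder after therapy, 115446087 in the non-responder after therapy, 78912300 in the responder before therapy and 65500644 in the non-responder before therapy. Levels are CPM (a gene's counts over the library's total, times 1e+06) scaled by the trimmed mean of M-values (TMM), and intervals in brackets are 95% intervals for counting error alone. The 6 markers of the sort (CD8A, CD8B, CD3D, CD3E, CD3G and ITGAL) were at or above 1 CPM in every library and summed to 4536, 3211, 4405 and 3653 CPM in that order of libraries. The libraries also held transcripts of other cells. The 14 monocyte and neutrophil markers, led by LYZ, summed to 1937 CPM in the responder after therapy, 9306 in the non-responder after therapy, 120.1 in the responder before therapy and 192 in the non-responder before therapy. The 11 epithelial and stromal markers, led by FN1, summed to 3.80, 4.83, 344 and 26.3 CPM in the same order. The 8 platelet markers summed to 27.4, 208, 43.1 and 93.3 CPM, and the 5 CD4 T cell markers to 50.1, 143, 29.9 and 36.8 CPM. With 1 library per group no pair of libraries has a replicate check, so differences between pairs carry no test.

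Nearly all members were detected everywhere. All 42 had at least 1 count in 3 libraries, and 41 in the non-responder before therapy, where CCNB2 had none. At or above 1 CPM stood 38 members in the responder after therapy, 32 in the non-responder after therapy, 42 in the responder before therapy and 36 in the non-responder before therapy. Per kilobase of the length given in the files, PCNA was highest with a mean over the libraries of 34.9 CPM, followed by MCM3 with 22.2, MCM7 with 18.4 and STMN1 with 17.4. Replication members were the more abundant class: their median level was 14.3 CPM in the responder after therapy, 8.89 in the non-responder after therapy, 18.1 in the responder before therapy and 22.4 in the non-responder before therapy. The medians of the mitotic members were 3.00, 1.60, 6.14 and 4.54 CPM in that order.

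**Figure D1:**
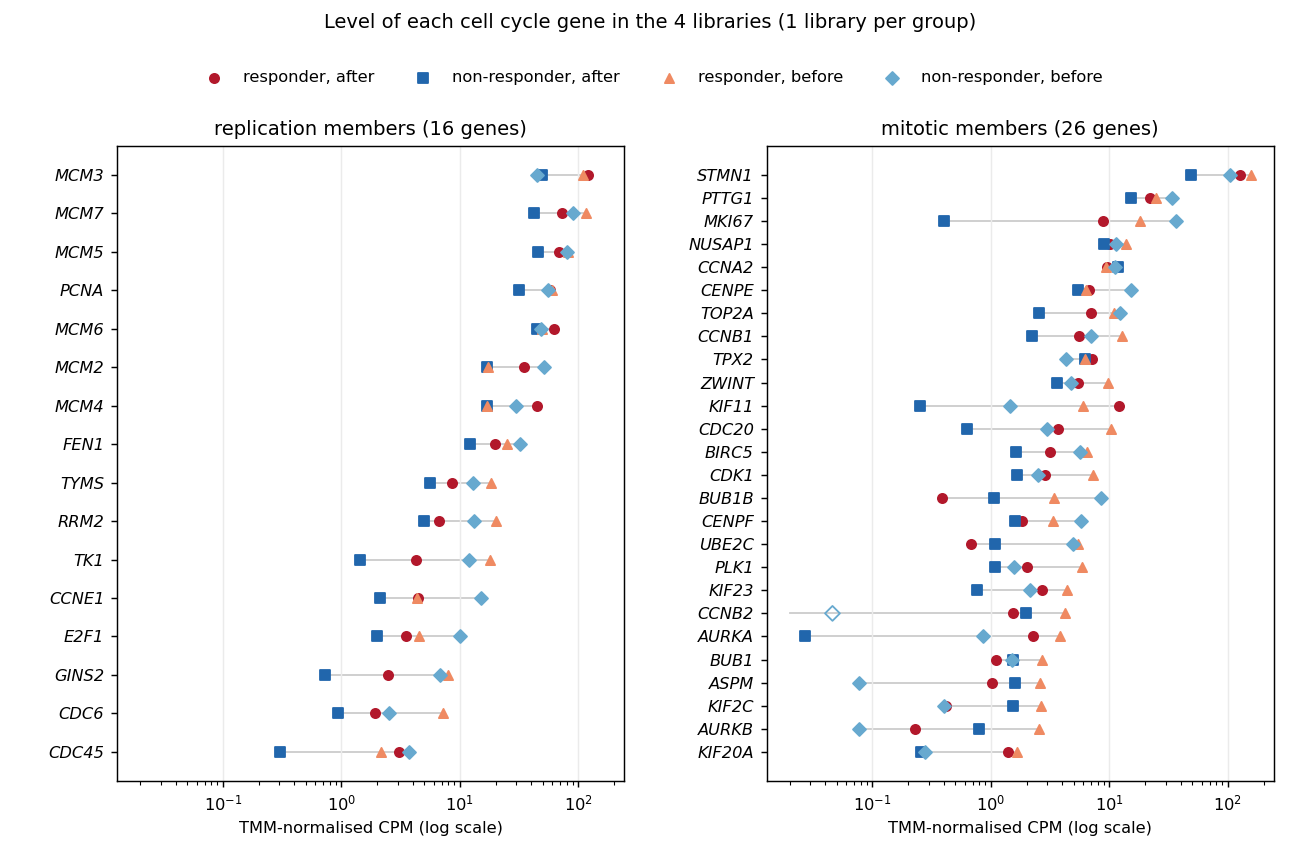
Level of each of the 42 genes in TMM-normalised CPM on a log axis, one point per library, with replication members on the left and mitotic members on the right. The non-responder after therapy (dark squares) is the lowest point for 31 of the 42 genes, a count not made over all genes. The open diamond marks CCNB2 at 0 counts, drawn at the level of 3 counts.

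The library of the non-responder after therapy stood lowest for 31 of the 42 members, 14 of 16 in replication and 17 of 26 in mitosis. The library of the responder before therapy stood highest for 25 of 42, 8 in replication and 17 in mitosis. With the libraries scaled instead to the geometric mean of the 6 sort markers, those counts were 24 and 21 of 42. The same counts were not made over all genes, so whether this order is particular to the members is not known. The non-responder after therapy also had the highest monocyte and neutrophil sum (9306 CPM), and the responder before therapy the highest epithelial and stromal sum (344 CPM). The part of those cells in the levels was not tested. In bulk RNA, fewer dividing cells and less RNA per dividing cell cannot be told apart.

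Among the G1/S regulators, CCNE1 encodes cyclin E1, which drives entry into S phase with CDK2. CCNE1 had 4.43 CPM in the responder after therapy, 2.10 in the non-responder after therapy, 4.37 in the responder before therapy and 15.1 in the non-responder before therapy. E2F1, a transcription factor that turns on replication genes, had 3.49, 1.98, 4.50 and 9.94 CPM in the same order. Both genes thus stood highest in the non-responder before therapy and lowest in the non-responder after therapy. The responder libraries lay close to each other, with log2 ratios of after over before therapy of 0.02 (-0.17 to 0.21) for CCNE1 and -0.37 (-0.57 to -0.17) for E2F1.

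The 6 genes of the MCM ring together had 405 CPM in the responder after therapy, 216 in the non-responder after therapy, 390.3 in the responder before therapy and 345 in the non-responder before therapy. They are the bulk of the replication class, and their members did not move as one. MCM3 (chromosome 6, 52264009 to 52284881 in hg38) had 121 CPM in the responder after therapy, 48.9 in the non-responder after therapy, 109.9 in the responder before therapy and 44.7 in the non-responder before therapy. Both responder libraries exceeded both non-responder libraries, with nearly equal ratios: log2 1.31 (1.26 to 1.35) after therapy and 1.30 (1.24 to 1.36) before it. MCM2 and MCM4 followed another order. MCM2 had 34.5 CPM in the responder after therapy, 17.0 in the non-responder after therapy, 17.3 in the responder before therapy and 51.2 in the non-responder before therapy. MCM4 had 44.5, 17.1, 16.8 and 29.6 CPM. For both genes the responder was the higher library after therapy and the lower one before it. MCM6 varied least of the ring, with 62.5, 44.7, 49.1 and 48.0 CPM, a highest level 1.40 times its lowest. MCM5 had 69.3, 45.9, 81.4 and 81.0 CPM and MCM7 had 73.3, 42.6, 116 and 90.6 CPM, both lowest in the non-responder after therapy.

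The genes that load and start the helicase were rarer and varied more. CDC45, a subunit of the active helicase, had 3.06 CPM in the responder after therapy, 0.304 in the non-responder after therapy, 2.17 in the responder before therapy and 3.70 in the non-responder before therapy. The low value rests on 34 counts, and it set the non-responder after therapy 10.1-fold under the responder after therapy. GINS2, a subunit of the GINS complex, had 2.49, 0.724, 7.99 and 6.75 CPM. CDC6, which loads the MCM ring, had 1.91, 0.929, 7.17 and 2.50 CPM. All 3 were lowest in the non-responder after therapy, and GINS2 and CDC6 were lower after therapy than before it in both response classes.

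At the fork itself, PCNA, the sliding clamp of the DNA polymerases, had 58.1 CPM in the responder after therapy, 31.5 in the non-responder after therapy, 59.9 in the responder before therapy and 55.9 in the non-responder before therapy. The other libraries lay close together, and the non-responder after therapy lay apart. FEN1, the flap endonuclease that trims Okazaki fragments, had 19.9, 12.2, 24.98 and 32.0 CPM, although it shares 4265 bases with FADS2 and 166 with TMEM258, whose reads cannot be told apart from it without a known strand setting.

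The 3 enzymes of nucleotide supply differed between times in both response classes. TK1, thymidine kinase, had 4.23 CPM in the responder after therapy, 1.45 in the non-responder after therapy, 18.0 in the responder before therapy and 11.96 in the non-responder before therapy. RRM2, the regulated subunit of ribonucleotide reductase, had 6.68, 4.96, 20.2 and 13.1 CPM. TYMS, thymidylate synthase, had 8.65, 5.61, 18.2 and 13.0 CPM. In each gene both libraries from after therapy were at least 2-fold lower than the library of the same response class from before therapy, and in each the responder was higher than the non-responder at both times. Scaled to the sort markers, TYMS missed 2-fold and RRM2 turned to lower in the responder after therapy. RRM2 and TYMS come with limits: the near-copy RRM2P3 had 70 counts in the non-responder after therapy, against 4 to 16 in the other libraries, and TYMS overlaps ENOSF1.

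In mitosis, the cyclins and CDK1 parted ways. CCNB1 encodes cyclin B1, which with the kinase CDK1 starts mitosis. CCNB1 had 5.51 CPM in the responder after therapy, 2.21 in the non-responder after therapy, 12.8 in the responder before therapy and 6.99 in the non-responder before therapy. CDK1 had 2.87, 1.65, 7.28 and 2.52 CPM. Both genes stood highest in the responder before therapy. CCNB2, cyclin B2, had 1.53 CPM in the responder after therapy, 1.97 in the non-responder after therapy and 4.19 in the responder before therapy, and no count in the non-responder before therapy. Against the floor of 3 counts in that library, the responder before therapy was at least 91.1-fold higher and the non-responder after therapy at least 42.9-fold higher. CCNA2, cyclin A2, which acts in both S phase and G2, varied least of all 42 members: it had 9.59, 11.8, 9.31 and 11.2 CPM, a highest level 1.27 times its lowest. CCNA2 overlaps EXOSC9, which had several times its counts in every library (8245, 7690, 5308 and 5548), and how the deposited counts split shared reads is not given in the sources used here.

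The mitotic kinases and checkpoint genes included several at the edge of detection. AURKA, Aurora kinase A of the centrosome, had 2.28 CPM in the responder after therapy, 0.0268 in the non-responder after therapy, 3.84 in the responder before therapy and 0.859 in the non-responder before therapy. The lowest of these is 3 counts, so the log2 ratio of 6.19 after therapy has an interval of 4.85 to 8.69. AURKB, the Aurora kinase of the chromosomal passenger complex, did not follow it, with 0.228, 0.795, 2.53 and 0.0767 CPM. PLK1, Polo-like kinase 1, had 2.03 CPM in the responder after therapy, 1.09 in the non-responder after therapy, 5.83 in the responder before therapy and 1.56 in the non-responder before therapy. BUB1B, a spindle checkpoint protein, went the other way: it had 0.385, 1.05, 3.40 and 8.54 CPM, lower in the responder at both times. It shares 3709 bases with PAK6, which had 1179, 287, 394 and 193 counts in the same order. BUB1, its checkpoint partner, had 1.11, 1.54, 2.69 and 1.52 CPM, highest in the responder before therapy.

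Of the spindle motors, KIF11, which pushes the spindle poles apart, showed the widest difference between the responses after therapy. KIF11 (chromosome 10, 92593286 to 92655395) had 11.98 CPM in the responder after therapy, 0.2502 in the non-responder after therapy, 6.03 in the responder before therapy and 1.44 in the non-responder before therapy. The counts behind these were 1526, 28, 502 and 94. The responder was 47.9-fold higher after therapy and 4.18-fold higher before it. KIF20A, which acts at the central spindle, had 1.38, 0.259, 1.67 and 0.276 CPM, and KIF23, of the same structure, had 2.68, 0.768, 4.35 and 2.15 CPM. In these 3 motors both responder libraries were above both non-responder libraries. KIF20A overlaps BRD8 and CDC23, which had far higher counts. KIF2C, a motor that takes microtubules apart at the centromere, had 0.416 CPM in the responder after therapy, 1.54 in the non-responder after therapy, 2.63 in the responder before therapy and 0.399 in the non-responder before therapy. The responder was the lower library after therapy and the higher one before it. KIF2C shares 8731 bases with RP11-269F19.2, which had 422, 404, 437 and 391 counts.

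Among the spindle proteins, STMN1 was the most abundant mitotic member by far. STMN1 encodes stathmin, which binds free tubulin and is raised in dividing lymphocytes. It had 125.5 CPM in the responder after therapy, 49.2 in the non-responder after therapy, 156.5 in the responder before therapy and 104 in the non-responder before therapy. TPX2, which activates Aurora kinase A on the spindle, had 7.10, 6.20, 6.26 and 4.32 CPM, and NUSAP1, a microtubule binder, had 10.1, 9.04, 13.8 and 11.4 CPM. Neither spanned 2-fold over the 4 libraries, in contrast to STMN1. ASPM, which sits at the spindle poles, had 1.01, 1.61, 2.61 and 0.0767 CPM, and the last of these is 5 counts.

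At the kinetochore, CENPE, a motor that moves chromosomes to the spindle equator, had 6.70 CPM in the responder after therapy, 5.40 in the non-responder after therapy, 6.40 in the responder before therapy and 15.2 in the non-responder before therapy. CENPF, a large kinetochore protein, had 1.84, 1.60, 3.34 and 5.81 CPM. Both were highest in the non-responder before therapy, like MKI67 and TOP2A. ZWINT, which links checkpoint proteins to the kinetochore, had 5.48, 3.61, 9.81 and 4.75 CPM and BIRC5, survivin of the chromosomal passenger complex, had 3.13, 1.62, 6.43 and 5.67 CPM. Both were highest in the responder before therapy.

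CDC20 and UBE2C work in the anaphase-promoting complex, which marks securin (PTTG1) and the cyclins for destruction. CDC20 had 3.71 CPM in the responder after therapy, 0.634 in the non-responder after therapy, 10.4 in the responder before therapy and 2.99 in the non-responder before therapy. The responder was 5.85-fold higher after therapy and 3.47-fold higher before it. UBE2C had 0.683, 1.08, 5.43 and 4.92 CPM, which separates the times and not the responses. PTTG1 had 22.1, 15.2, 24.97 and 33.9 CPM, and its near-copy PTTG2 had 4, 122, 50 and 22 counts against 2814, 1703, 2079 and 2212 for PTTG1.

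MKI67 (chromosome 10, 128096659 to 128126385), the proliferation marker named above, had the second widest span of any member with a count in every library. MKI67 had 8.91 CPM in the responder after therapy, 0.402 in the non-responder after therapy, 18.1 in the responder before therapy and 36.5 in the non-responder before therapy. These are 1135, 45, 1507 and 2383 counts. The non-responder libraries, not known to share a patient, thus had both the highest and the lowest MKI67 level, 90.9-fold apart. The responder was 22.2-fold above the non-responder after therapy and 2.02-fold below it before therapy. TOP2A, the topoisomerase that untangles chromosomes in mitosis, had the same order with a narrower span, 7.01, 2.54, 10.9 and 12.3 CPM.

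After therapy, the cell cycle genes were mostly higher in the responder. Every one of the 16 replication members was higher in the responder than in the non-responder (all but RRM2 when scaled to the sort markers), 8 of them at least 2-fold: CCNE1, CDC6, CDC45, GINS2, MCM2, MCM3, MCM4 and TK1. Of the 25 mitotic members that reached 1 CPM in at least 1 of the libraries compared, 18 were higher, 9 of them at least 2-fold (CCNB1, AURKA, KIF11, KIF20A, KIF23, STMN1, CDC20, MKI67 and TOP2A). BUB1B and KIF2C were at least 2-fold lower, and AURKB, which missed the 1 CPM filter, was 3.49-fold lower. Together 17 of 41 members were at least 2-fold higher and 2 at least 2-fold lower, where of all 17168 genes that met the same filter 7.99% were at least 2-fold higher and 14.0% lower. The median log2 ratio was 0.95 for the replication members and 0.60 for the mitotic members, beside 0.02 for all genes.

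The sort markers moved with these ratios, with a median log2 ratio of 0.51 in favour of the responder after therapy, and the monocyte and neutrophil sum moved against them (1937 CPM in the responder, 9306 in the non-responder). Under the scaling to the sort markers, the median was 0.48 for the replication members and 0.13 for the mitotic members, and 9 members were at least 2-fold higher and 4 lower. It brought the median of all genes to -0.47. Relative to all genes the replication members stood 0.95 higher and the mitotic members 0.60 higher, beside 0.93 and 0.58 with TMM scaling. A change of scaling shifts members and all genes alike, so these differences could hardly change and are no check on the ratios. With the sort-marker scaling RRM2, TPX2, NUSAP1, CENPE and CENPF turned to lower in the responder after therapy. The part of the other cells in these ratios was not tested.

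Before therapy the classes parted. Of the 16 replication members 10 were higher in the responder and 6 lower (7 and 9 when scaled to the sort markers), with 2 at least 2-fold higher (CDC6 and MCM3) and 3 at least 2-fold lower (CCNE1, E2F1 and MCM2). Of the 26 mitotic members 19 were higher, 12 of them at least 2-fold, and 3 were at least 2-fold lower (BUB1B, CENPE and MKI67). In all, 14 of 42 members were at least 2-fold higher and 6 lower, where of all 17591 genes 15.8% were higher and 14.0% lower. The median log2 ratio was 0.07 for the replication members, near the 0.04 of all genes, and 0.84 for the mitotic members. The 12 mitotic genes were CCNB2, CDK1, AURKA, AURKB, PLK1, KIF11, KIF20A, KIF23, KIF2C, ASPM, ZWINT and CDC20, all of them under 11 CPM in either library. With a filter of 5 CPM in place of 1 CPM, the mitotic median was 0.23 over 18 members. Scaling to the sort markers gave 0.61 for the mitotic and -0.17 for the replication members, with all genes at -0.21. The epithelial and stromal sum was 344 CPM in this responder library and 26.3 in the non-responder library, and its part was not tested.

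**Figure D2:**
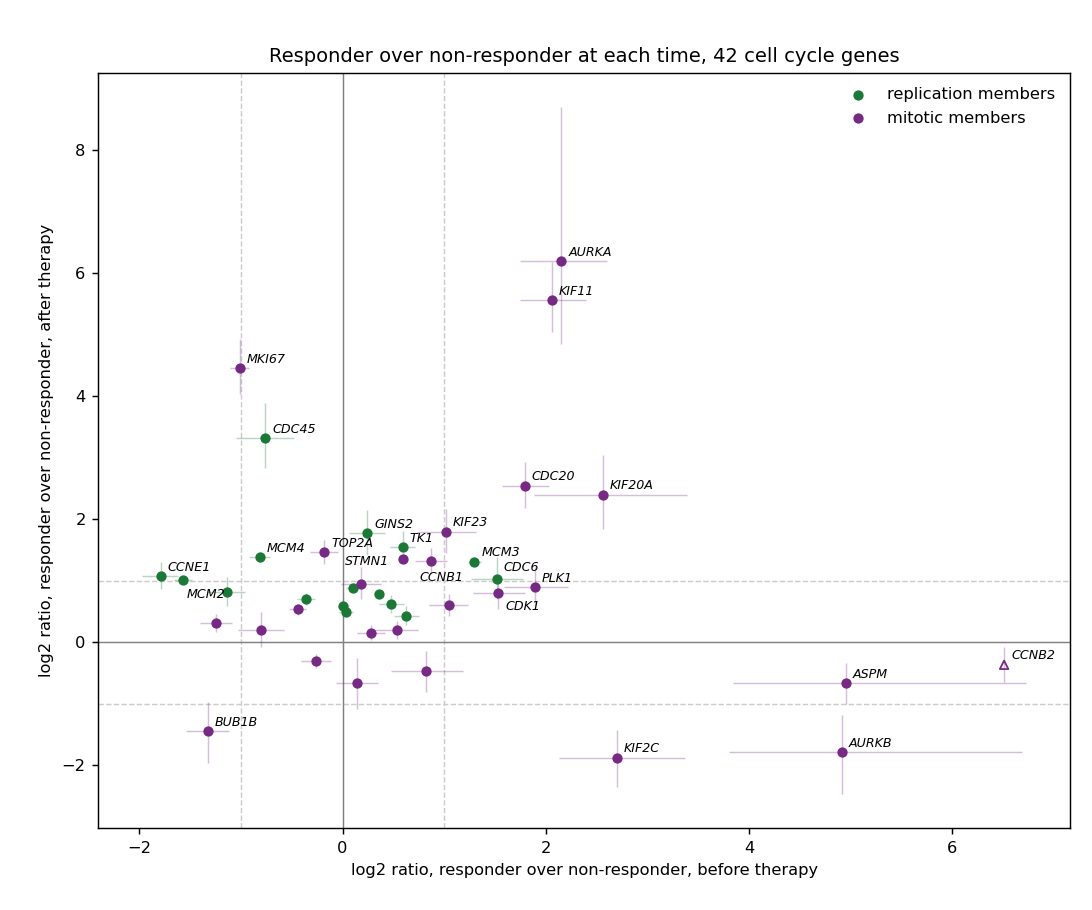
Log2 ratio of responder over non-responder for each of the 42 genes, before therapy on the horizontal axis and after therapy on the vertical axis, with 95% counting intervals and dashed lines at 2-fold. With the TMM scaling shown, replication members all lie above the horizontal line at 0 (all but RRM2 with scaling to the sort markers), while KIF11, AURKA, CDC20 and KIF20A lie in the upper right, and the open triangle places CCNB2 at its lower bound for a library with 0 counts.

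Across both times the responder was at least 2-fold higher each time for 7 of 41 members, and of all 15936 genes that met the filter at both times 2.83% were. They were CDC6 and MCM3 in replication and AURKA, KIF11, KIF20A, KIF23 and CDC20 in mitosis. BUB1B alone was at least 2-fold lower each time, with 3.73% of all genes so. Scaled to the sort markers, 4 of the 7 were still at least 2-fold higher each time: AURKA, KIF11, KIF20A and CDC20. With no fold required, 23 of the 41 stood above the non-responder each time and 2 below it, a count not made over all genes. Another 4 (CCNE1, MCM2, KIF2C and MKI67) were at least 2-fold apart in opposite directions, which held for 2.71% of all genes.

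Low counts widen ratios, so the members were also set beside genes of like abundance. Among genes with a mean of 1 to 10 CPM over the libraries, 33.3% were at least 2-fold apart between the responses after therapy and 40.3% before it. Of the 25 members in that range, 11 were at least 2-fold higher and 2 lower in the responder after therapy, and 11 higher and 4 lower before it. At 10 CPM or above, 9.44% of all genes were at least 2-fold apart after therapy and 16.2% before it. Of the 15 members there, the responder after therapy was at least 2-fold higher for 5 (MCM2, MCM3, MCM4, STMN1 and MKI67) and lower for none. Before therapy it was higher for MCM3 and lower for MCM2 and MKI67. CCNB2, AURKA and ASPM were under 0.1 CPM in a library although their mean was 1 to 10 CPM, 12% of the 25 members, against 9.73% of all genes in that range.

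Response and time were also put in an additive model over all 4 libraries, with 2 libraries on each side, which leaves 1 residual degree of freedom. By edgeR's quasi-likelihood test with Benjamini-Hochberg adjustment, 0 of 24112 genes passed an adjusted p of 0.05 for response (0% of genes), and 2119 had an unadjusted p under 0.05, which is 8.79%. The lowest adjusted p over all genes was 0.557. No member passed, and 5 had an unadjusted p under 0.05 (MCM3, KIF11, KIF20A, STMN1 and CDC20), all fitted higher in responders. MCM3 had a fitted log2 ratio of 1.30 with a standard error of 0.19 and an adjusted p of 0.557 in edgeR, and it was higher in the responder at 2 of 2 times. KIF11 was fitted at 3.79 with a standard error of 1.19 and CDC20 at 2.17 with 0.53. In the fit 34 members were higher and 8 lower in responders, and the directions of all genes were not counted. DESeq2 on the same design called 898 of 19437 genes, 4.62%, among them 4 members (MCM3, AURKA, KIF11 and CDC20), all higher in responders. The calls thus depended on the tool, and limma-voom made none. With response alone in the edgeR model, 0 of 24112 genes passed, 1365 had an unadjusted p under 0.05, and the lowest adjusted p was 0.872.

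Over time, levels in the responder were mostly lower after therapy than before it, and more so for mitosis than for replication. Of the 42 members 1 was at least 2-fold higher (MCM4) and 18 at least 2-fold lower, where of all 17054 genes 10.6% were higher and 10.5% lower. The lower ones were CDC6, GINS2, TYMS, TK1 and RRM2 in replication and 13 of the 26 mitotic members. Those 13 were CCNB1, CCNB2, CDK1, AURKB, PLK1, BUB1, BUB1B, KIF2C, ASPM, BIRC5, CDC20, UBE2C and MKI67. The median log2 ratio was -0.28 for the replication members and -0.94 for the mitotic members, beside 0.02 for all genes. AURKB was lowest of all, 11.1-fold under the level before therapy, followed by BUB1B at 8.84-fold and UBE2C at 7.95-fold. KIF11 and MCM2 were just short of 2-fold higher, at 1.986-fold and 1.995-fold. The epithelial and stromal sum was 3.80 CPM in the responder after therapy and 344 before it, and its part was not tested.

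In the non-responder the replication members were lower as well. Of the 39 members that met the filter 3 were at least 2-fold higher after therapy than before it (CCNB2, KIF2C and ASPM) and 24 at least 2-fold lower, where of all 17891 genes 19.1% were higher and 14.1% lower. The 24 were 11 of 16 replication members and 13 of 23 mitotic members. The median log2 ratio was -1.40 for the replication members and -1.16 for the mitotic members, beside 0.05 for all genes. MKI67 had the lowest ratio, with log2 -6.49 (-6.96 to -6.08), followed by CDC45 at -3.59 and GINS2 at -3.21. MCM3 was 1.09-fold higher and MCM6 1.07-fold lower than before therapy. Scaled to the sort markers, the medians were -1.09 and -0.85, with all genes at 0.37. The monocyte and neutrophil sum was 9306 CPM in the non-responder after therapy and 192 before it, and its part was not tested.

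**Figure D3:**
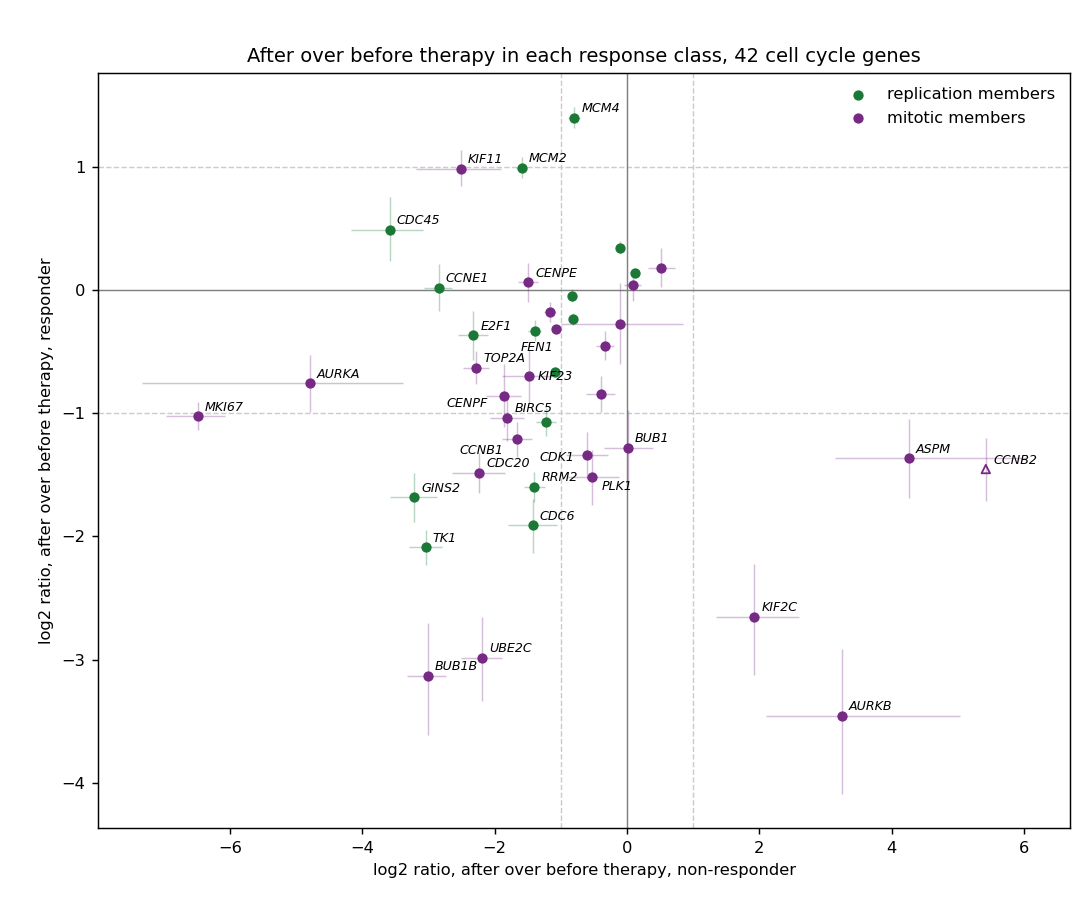
Log2 ratio of after over before therapy for each of the 42 genes, non-responder on the horizontal axis and responder on the vertical axis, with 95% counting intervals and dashed lines at 2-fold. Most points lie in the lower left, where BUB1B, UBE2C, TK1 and GINS2 are far down in both classes, while KIF2C, AURKB, ASPM and CCNB2 (open triangle, a bound) lie to the lower right.

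Both response classes shared 11 members that were at least 2-fold lower after therapy, of the 39 that met the filter in both, where 3.55% of all 16122 genes were. They were CDC6, GINS2, TYMS, TK1 and RRM2 in replication and CCNB1, BUB1B, BIRC5, CDC20, UBE2C and MKI67 in mitosis. No member was at least 2-fold higher after therapy in both, while 5.16% of all genes were. With no fold required 25 of the 39 were lower in both and 3 higher, a count not made over all genes. Scaled to the sort markers, 8 of the 11 were at least 2-fold lower in both, without TYMS, BIRC5 and MKI67. The PD-1pos tag goes with time in both classes, so therapy, tag and patient cannot be told apart in these ratios.

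Replication and mitosis can also be set against each other within a library, where scaling cancels. The summed replication level was 518 CPM in the responder after therapy, 278 in the non-responder after therapy, 558 in the responder before therapy and 509 in the non-responder before therapy. The summed mitotic level was 245, 123, 341 and 279 CPM. Replication over mitotic sums was thus 2.11 in the responder after therapy, 2.26 in the non-responder after therapy, 1.63 in the responder before therapy and 1.82 in the non-responder before therapy. STMN1 alone makes up a large part of the mitotic sum, and without it the ratios were 4.33, 3.76, 3.02 and 2.90. Both libraries from after therapy had the higher ratio with and without STMN1, whereas the order of the responses turned at each time when it was left out. For responder over non-responder, the mitotic minus the replication median log2 ratio was -0.35 after therapy and 0.78 before it.

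**Figure D4:**
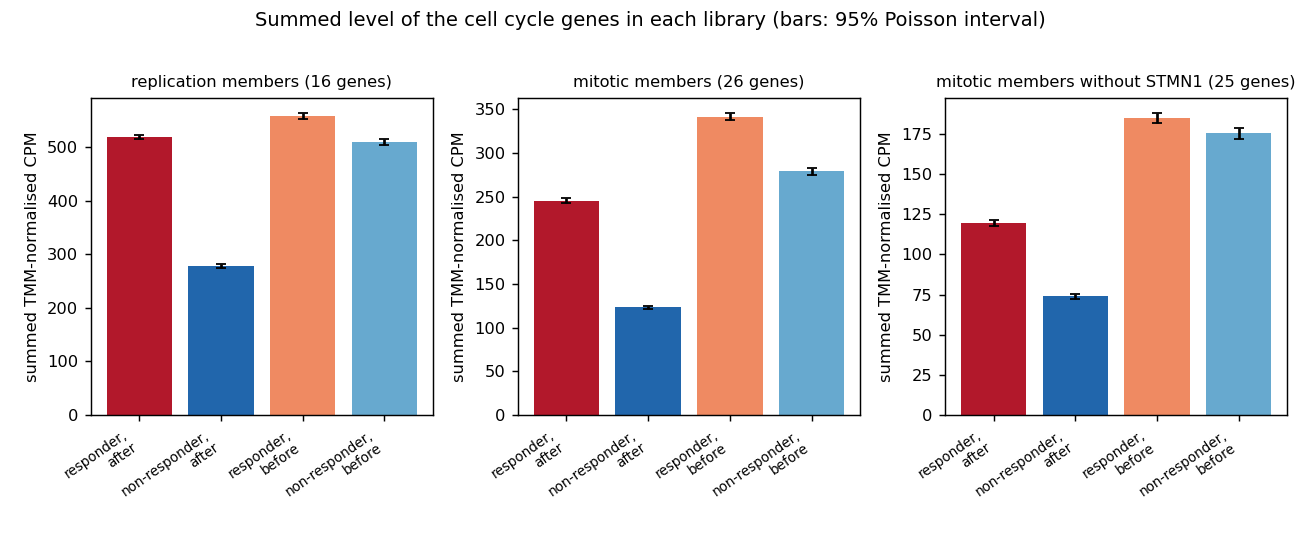
Summed TMM-normalised CPM of the 16 replication members, the 26 mitotic members and the mitotic members without STMN1 in each library, with 95% Poisson intervals for counting error. The non-responder after therapy has the lowest bar in each panel, 278, 123 and 73.9 CPM, while the responder and the non-responder before therapy are within 1.22 times of each other in each panel.

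Other genes of the pathway, from lists of textbook roles, gave the wider setting, to be read beside the shares of all genes: after therapy the responder was 2-fold or more above for 7.99% and below for 14.0%, and before therapy for 15.8% and 14.0%. Of 35 further replication genes, 33 met the filter after therapy, and the responder was at least 2-fold higher for 9 and lower for 1 of them, ORC6. Their median log2 ratio was 0.68. Before therapy 7 of 34 were higher and 1, CLSPN, lower, with a median of 0.10. The pattern of medians was thus that of the replication members, high after therapy and near 0 before it. POLE2, a subunit of DNA polymerase epsilon, had 5.11 CPM in the responder after therapy, 1.19 in the non-responder after therapy, 3.53 in the responder before therapy and 1.17 in the non-responder before therapy. DTL, which helps to destroy CDT1 in S phase, had 9.29, 2.60, 8.53 and 2.53 CPM, and UHRF1, which keeps DNA methylation through replication, had 6.07, 0.2502, 10.1 and 1.01 CPM. For all 3 the responder was at least 2-fold higher each time. Of the 32 further replication genes that met the filter at both times only these 3 were, beside 2.83% of all genes. These genes and GINS1 were named for the largest mean response ratios with the same direction at both times. GINS1 had 1.70, 0.0179, 0.997 and 0 CPM, of which the second is 2 counts.

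Of 47 further mitotic genes, 36 met the filter after therapy, and the responder was at least 2-fold higher for 10 and lower for 5 of them (KIF15, CENPA, CASC5, CDCA3 and MELK). Their median log2 ratio was 0.44. Before therapy 16 of 43 were higher and 10 lower, with a median of 0.01, so that the mitotic median of 0.84 of the members was not matched in this wider list. KIFC1, DLGAP5, HMMR, ECT2, SGOL1, CDCA5 and RACGAP1 were at least 2-fold higher each time, and CASC5 lower. RACGAP1, which works with KIF23 in cytokinesis, had 25.1 CPM in the responder after therapy, 7.97 in the non-responder after therapy, 11.5 in the responder before therapy and 0.0767 in the non-responder before therapy. DLGAP5, a spindle protein, had 1.63, 0, 3.98 and 0.951 CPM, and CDCA5, which holds sister chromatids together, had 1.72, 0.509, 2.19 and 0 CPM. KIF14, a motor of cytokinesis, had 1.22, 0, 0.0841 and 0 CPM. RACGAP1, DLGAP5, CDCA5 and KIF14 were named for the largest mean response ratios in the list. A count of 0 in a non-responder library widens such a ratio, so the 0 counts shown here go with that choice.

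Genes of G1 control and of the RB, E2F and MuvB families lay closer together. Of 25 such genes, 22 met the filter after therapy, and the responder was at least 2-fold higher for CCND2 alone and lower for none. Before therapy it was higher for 4 of 24 (CCND1, CDK2, CDK4 and E2F6), a share near the 15.8% of all genes, and lower for none. Their median log2 ratios were 0.39 after therapy and 0.23 before it. CCND2, the D-type cyclin of lymphocytes, had 393 CPM in the responder after therapy, 115 in the non-responder after therapy, 98.7 in the responder before therapy and 78.2 in the non-responder before therapy. It was highest in the responder after therapy, as were only MCM3, MCM4, MCM6, KIF11 and TPX2 among the 42 members. CDK4, its kinase, had 49.5, 37.2, 55.4 and 24.7 CPM and CDK2, the kinase of cyclin E, had 20.1, 12.7, 16.02 and 5.63 CPM. CCND1, a D-type cyclin that lymphocytes use little, had 0.918, 0.393, 4.78 and 1.60 CPM.

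Over time, the further lists were also counted at 2-fold, after against before therapy, beside all genes with 10.6% higher and 10.5% lower in the responder and 19.1% higher and 14.1% lower in the non-responder. The further replication genes had 2 higher (POLA1 and BRCA1) and 5 lower of 35 in the responder, and 1 higher (RFC3) and 12 lower of 34 in the non-responder. The 5 lower of 35 in the responder are near the share of all genes. CDT1, GINS4, CHAF1B and EXO1 were lower in both. CDT1, which loads the MCM ring with CDC6, had 0.361 CPM in the responder after therapy, 0.670 in the non-responder after therapy, 3.52 in the responder before therapy and 3.51 in the non-responder before therapy. The median log2 ratio of the further replication genes was -0.22 in the responder and -0.31 in the non-responder, beside -0.28 and -1.40 for the replication members. The low median of the members in the non-responder was thus not matched in this wider list. The further mitotic genes had 3 higher (KIF14, CASC5 and RACGAP1) and 13 lower of 42 in the responder, and 5 higher (TTK, KIF15, NCAPD2, MELK and RACGAP1) and 18 lower of 39 in the non-responder. KIF4A, CENPI, CENPM, ANLN, GTSE1, HJURP, CDCA8 and INCENP were lower in both, and RACGAP1 was higher in both. The median log2 ratio of the further mitotic genes was -0.38 in the responder and -0.84 in the non-responder. The mitotic members had lower medians, -0.94 and -1.16.

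Over time, of the G1 list 5 of 24 genes were at least 2-fold higher (CCND2, RB1, RBL2, LIN9 and LIN54) and 4 lower (CCND1, E2F7, MYBL2 and LIN37) in the responder, and 3 were higher (CDK2, RBL2 and LIN9) and 4 lower (CCND1, E2F7, TFDP2 and MYBL2) in the non-responder. Those counts, other than the 5 higher in the responder, lie near the shares of all genes given above or under them. RBL2, which encodes p130, the RB family protein of resting cells, had 1151 CPM in the responder after therapy, 704 in the non-responder after therapy, 465 in the responder before therapy and 257 in the non-responder before therapy. MYBL2, which encodes B-MYB, an activator of mitotic genes, had 3.16, 1.72, 8.22 and 6.82 CPM in that order. Both libraries from after therapy were thus above both from before therapy for RBL2, and below both for MYBL2. FOXM1, named above beside B-MYB as a factor of mitotic genes, did not follow MYBL2. It had 7.01, 4.11, 4.38 and 4.11 CPM in the same order, higher after therapy in the responder and level in the non-responder. These genes were picked for description after their values were seen.

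Markers of activated CD8+ T cells moved with the cell cycle genes. The 9 markers, led by the cytotoxic protease GZMB, summed to 1166 CPM in the responder after therapy, 491 in the non-responder after therapy, 1578 in the responder before therapy and 1043 in the non-responder before therapy. The non-responder after therapy was lowest in this sum, in the replication sum and in the mitotic sum, and the responder before therapy was highest in all 3 with TMM scaling. Scaled to the sort markers, the replication sum was 471, 349, 481 and 516.5 CPM in the same order, highest in the non-responder before therapy, and the mitotic sum was 223, 155, 294 and 283 CPM. GZMB itself had 866, 317, 1299 and 875 CPM. Of the remaining marker lists, NK cell markers summed to 349, 448, 324 and 236 CPM in the same order of libraries. Dendritic cell markers summed to 6.71, 65.5, 3.33 and 3.86 CPM, and erythroid markers to 3.90, 5.42, 2.86 and 22.1 CPM. The epithelial gene EPCAM was at 0 in every library but the responder before therapy.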

How the data were processed

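RNA of 4 libraries of sorted CD11a-high CD8+ blood T cells (1 ng input, SMARTer Ultra Low kit, paired-end reads of 101 bases) was sequenced, per the labels' protocols. The submitters' processing notes name bcl2fastq 1.8.4, TopHat2 without a version, and hg38; no counting tool, strand setting or annotation is named in them. The authors deposited raw counts per gene, per the file headers and the whole-number values. The organism label says mouse, but the genes are human on hg38 and the design text speaks of patients, so human was taken. A treatment label puts all sampling after a cycle, and the group label, which gives before and after, was followed.

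From 64253 genes, 4146 on alternate or unplaced contigs, 617 sex-informative genes and a second entry of TFDP2 were left out. Counts were scaled by TMM (edgeR 4.0.16, R 4.3.3) to CPM. Log2 ratios used a prior count of 0.5, and genes under 1 CPM in both libraries of a pair were left out of counts and medians. Intervals (95%) were exact Poisson for levels and exact conditional binomial for ratios. They cover counting error only, since no molecular identifiers are stated, and with 1 ng of RNA a 0 can be an uncaptured transcript. A library at 0 was set to a floor of 3 counts in folds. The additive model was edgeR's quasi-likelihood test, two-sided, with filterByExpr, beside DESeq2 1.42.0 and limma 3.58.1, and was tested on simulated data. Of the 42 members 19 overlap another gene, and reads of overlapping genes cannot be told apart.

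The 42 members, their classes and all lists were chosen with earlier results of these data known. All members are named, with 4 genes of each further pathway list (the largest absolute mean response ratio, the same direction at both times, at least 1 CPM in a library), those at least 2-fold apart at both times, and of marker lists the highest gene and some of those at 0. B and plasma cell markers are not reported here. Alternatives were 3 other scalings, other filters, a prior count of 2, a 1.5-fold rule, reduced classes and other models.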

Additional observations from a re-analysis of the deposited data

Results flagged for a closer look

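Some members were at least 2-fold apart in opposite directions in the pairs of the same contrast, each pair being 1 library against 1, and the difference between the pairs was not tested. For responder over non-responder, the log2 ratios were 1.08 after therapy and -1.79 before it for CCNE1, and 1.02 and -1.57 for MCM2. MKI67 had 4.45 after therapy and -1.01 before it, and its level before therapy was highest in the non-responder. KIF2C ran the other way, with -1.88 after therapy and 2.70 before it, on 53 and 172 counts after therapy and 219 and 26 before it.

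For after over before therapy, genes in opposite directions were not counted over all genes. KIF2C had -2.65 in the responder and 1.92 in the non-responder. ASPM had -1.36 in the responder and 4.26 in the non-responder, where the level before therapy was 5 counts. CCNB2 had -1.45 in the responder and at least 5.42 in the non-responder, a bound taken against a floor of 3 counts, since that library had no CCNB2 count before therapy.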

How the results depend on the processing

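Of 109 alternative values, 81 stayed the same, 27 moved and 1 reversed. A median stayed the same if it lay between the median lower and the median upper counting bound of the members. That range does not cover the spread among members. A count stayed the same if it was within 1.5 times the main count. Removing the filter left the same replication members, so their medians could not move. The cause of the moves was not tested. Scaling to the sort markers, added after the data were seen, gave these medians for responder over non-responder: 0.48 (replication) and 0.13 (mitotic) after therapy, and -0.17, reversed from 0.07, and 0.61 before it. For after over before therapy in the non-responder it gave -1.09 and -0.85. After therapy it left 9 members higher and 4 lower, and in the responder over time 3 higher. A filter of 5 CPM gave 0.75 for the replication members after therapy with 8 members higher and 0 lower, and 0.23 for the mitotic members before therapy with 7 higher. Over time it gave mitotic medians of -0.74 in the responder and -1.58 in the non-responder, with 0 members higher there. A 1.5-fold rule gave 27 higher and 4 lower after therapy and 3 higher over time in the responder. Library size alone moved the replication medians to 0.15 before therapy and -0.38 over time in the responder, and DESeq2 size factors gave 3 members higher there. Without CCNE1 and E2F1 the replication median before therapy was 0.17. Without MKI67, TOP2A, CCNA2, STMN1 and ZWINT the mitotic medians were 0.42 after therapy, -1.21 over time in the responder and -1.32 in the non-responder. The additive model called 0 genes by edgeR and 898 by DESeq2. No library can be left out, since each group has 1 and the additive model would have no residual degrees of freedom. No paired analysis was possible, since each group has 1 library and the labels do not say whether any patient gave blood at both times. AURKA, AURKB, ASPM and CCNB2 each had 5 counts or fewer in a library, so their counting intervals are wide.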
